A study of Mus musculus with 70 samples.

Results

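Mouse embryonic fibroblasts carrying a doxycycline-inducible, constitutively active MKK6 (genotype caMKK6) were compared after 7 days on doxycycline with untreated cultures of the same genotype. The comparison takes 6 of the 70 libraries of the series, 3 labelled doxycycline day 7 and 3 labelled no doxycycline day 2. The libraries were taken by those labels, while the comparison itself was chosen with earlier results of these data known. The cells came from male C57BL/6 embryos at embryonic day 13.5, from which the viscera and heads had been removed, and doxycycline was given at 2 µg/mL. Both groups carry the caMKK6 genotype, so they differ in doxycycline. They also differ in time in culture, because untreated cells were collected at day 2 and not at day 7. Doxycycline itself, the transgene and the longer culture cannot be told apart in this comparison. The parallel genotype, caMEK1, carries an active MEK1 and was sampled at the same times, untreated at day 2 and on doxycycline at day 7, 3 libraries each. Its fibroblasts share doxycycline and time with the caMKK6 cells but not the kinase. In the study's design text, caMKK6 stands for stress-induced senescence through p38 and caMEK1 for oncogene-induced senescence through ERK, and the fibroblasts are the in vitro counterpart of the mouse tissue.

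MKK6 is a dual-specificity kinase that phosphorylates and so switches on p38 MAP kinases. Active p38 acts through kinases such as MK2 and MSK and through phosphatases that feed back on it, and sustained p38 activity is known to arrest fibroblasts in a senescent state. Senescent fibroblasts are known for a stable exit from the cell cycle, high levels of CDK inhibitors, loss of lamin B1, an enlarged lysosome compartment and a changed set of secreted proteins.

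Expression is given as FPKM, read fragments scaled to transcript length and library depth, and values are listed for replicates 1, 2 and 3 in that order. Changes are differences of log2(FPKM + 1) with the standard error of the fit, which understates the change of low genes. A gene is said to have risen or fallen where the adjusted p of limma's test over 11347 genes was below 0.05. The 6 libraries held 10827479 to 16139107 reads in genes. Their log2 values correlated at 0.976 to 0.992 within a group and at 0.941 to 0.973 between the groups.

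The human MKK6 transgene was read at 1.15, 3.17 and 0.407 FPKM in the untreated libraries and at 206, 666 and 130 FPKM at day 7. All 3 induced libraries were far above all 3 untreated ones. The induced level was 970 ± 211 FPKM at day 2 and 747 ± 323 FPKM at day 4 (SD, n = 3), so the day 7 mean of 334 ± 290 FPKM was the lowest of the 3 times. The mCherry reporter went from 1.124, 11.1 and 12.6 FPKM untreated to 181, 522 and 100 FPKM at day 7. At day 7 its order over the replicates was that of MKK6. Untreated it was not, since replicate 3 held the least MKK6 and the most mCherry. Day 7 replicate 2 thus held the most transgene. It was also the library furthest from the untreated mean in 57.7% of the called genes. The endogenous mouse gene Map2k6 was read at 0.928, 1.07 and 0.812 FPKM untreated and 0.696, 0.764 and 0.867 at day 7, with no called change (log2 change -0.12 ± 0.16, adjusted p = 0.576, limma).

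Some libraries held RNA that their labels do not name. The Xenopus MEK1 transgene of the other genotype was read at 0, 10.96 and 16.01 FPKM in the untreated caMKK6 libraries and at 0 in all 3 day 7 libraries. The 2 nonzero values were 1.375% and 2.009% of the mean level in induced caMEK1 libraries. In caMKK6 libraries on doxycycline it was also read at 16.5 and 12.2 FPKM in day 2 replicates 2 and 3, and at 14.9 FPKM in day 4 replicate 2. Untreated mCherry ranked the replicates in the same order as the untreated MEK1 values, at 1.124, 11.1 and 12.6 FPKM, and its source was not tested. Most counts for the gene lists, other than cell type markers and gene families, are therefore also given against untreated replicate 1 alone. That fit left out every caMKK6 library that held this transgene, and its lone untreated library is assumed to vary like the other groups. Macrophage markers moved with the groups too. The summed level of 15 such genes was 153, 38.3 and 256 FPKM untreated and 683, 92.6 and 782 FPKM at day 7, higher at day 7 in each numbered pair. Replicate 2 was the lowest in both groups. Lyz2, which encodes the macrophage lysozyme, was the most abundant of them at 99.3, 22.6 and 172 FPKM untreated and 521, 66.7 and 578 at day 7. None of the 15 was at 0 in all 6 libraries, and Ptprc and Itgam stayed under 1 FPKM throughout. Of the 12 that could be tested only Cd68 rose, beside 11 of 12 in a fit without day 7 replicate 2 and 3 without untreated replicate 3. In bulk RNA a change in the number of cells of a type and a change in RNA per cell cannot be told apart.

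**Figure D1:**
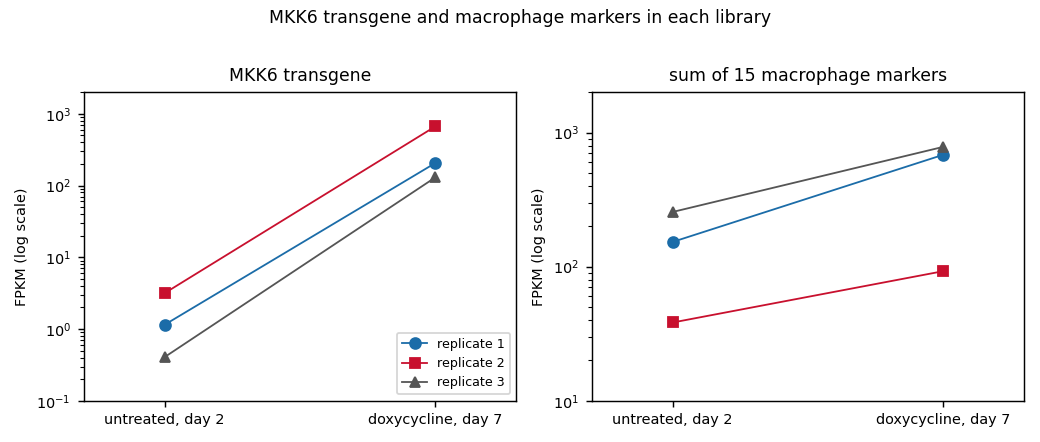
Level in FPKM (log axis) of the human MKK6 transgene and of the 15 summed macrophage markers in each caMKK6 library, with lines joining libraries of the same replicate number. The transgene lies between 0.407 and 3.17 FPKM untreated and between 130 and 666 FPKM at day 7, and the marker sum is lowest in replicate 2 on both sides.

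In all, 4629 of 11347 genes, 40.8%, differed between day 7 and untreated. Of these 1904 rose, 16.8% of those tested, and 2725 fell, 24%. Counts of rises and falls in the lists below are to be read beside these shares. A list near them does not stand out from all genes. The lists were chosen with earlier results of these data known. A count far from the shares therefore describes the members and is no independent support. Rises made up 41.1% of the calls as deposited, 51.4% after scaling each library to a common median (2326 higher, 2202 lower) and 46.4% after quantile normalization (2081 higher, 2400 lower). In 2117 genes, 18.7%, all 3 day 7 libraries lay above all 3 untreated ones, and in 2938, 25.9%, below. The median rise was 0.436 and the median fall 0.404 on the log2 scale, while 237 rises and 232 falls reached 1, 57 rises and 5 falls reached 2, and 14 rises and 1 fall reached 3. Against untreated replicate 1 alone, 1048 genes rose and 1626 fell, and 2507 of the 4629 calls were kept.

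**Figure D2:**
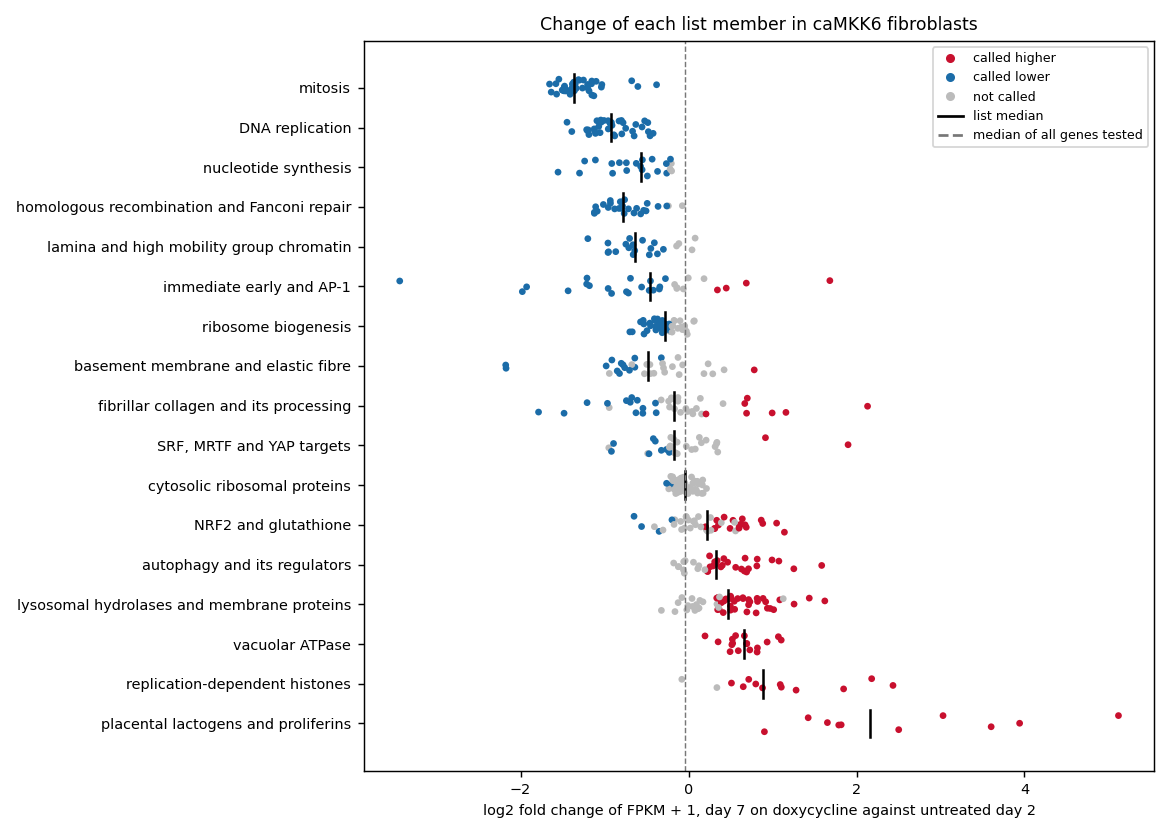
Log2 change from untreated to day 7 of each tested member of 17 gene lists, one point per gene. All 40 mitosis genes lie below 0 and all 17 vacuolar ATPase genes above it, while other lists spread to both sides.

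The largest log2 rise was that of Prl2c3 and the largest fall that of Egr1, among called genes whose groups did not overlap and whose higher mean was at least 5 FPKM. Prl2c3, a proliferin of the prolactin family, was read at 0.849, 4.11 and 2.15 FPKM untreated and 105, 192 and 60.1 at day 7, and rose by 5.12 ± 0.46 on the log2 scale (adjusted p = 1.00e-07, limma). Its near-identical neighbour Prl2c2, whose reads cannot be told apart with certainty, was read at 0.652, 2.86 and 1.501 FPKM untreated and 48.8, 46.5 and 23.4 at day 7 (3.94 ± 0.36). Cldn4, a tight junction claudin, was read at 0.293, 0.195 and 0.338 FPKM untreated and 27.01, 32.8 and 14.96 at day 7 (log2 change 4.28 ± 0.32). Stmn4, a stathmin of neurons that binds tubulin, stood at 1.07, 0.185 and 0.249 FPKM untreated and 16.1, 31.3 and 9.38 at day 7 (3.63 ± 0.26). In each of these the day 7 values lay at least an order of magnitude above the untreated ones in the same replicate number. The one fall beyond 3 was Egr1, an immediate early transcription factor, with 30.8, 44.9 and 39.2 FPKM untreated and 2.499, 1.57 and 4.1 at day 7 (log2 change -3.44 ± 0.21, adjusted p = 3.94e-09, limma). The basement membrane protein Nid2 followed among the falls, with 14.9, 15.4 and 16.1 FPKM untreated and 3.36, 0.977 and 4.57 at day 7 (-2.18 ± 0.34), and day 7 replicate 2 was the lowest library of the 6 for both genes.

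**Figure D3:**
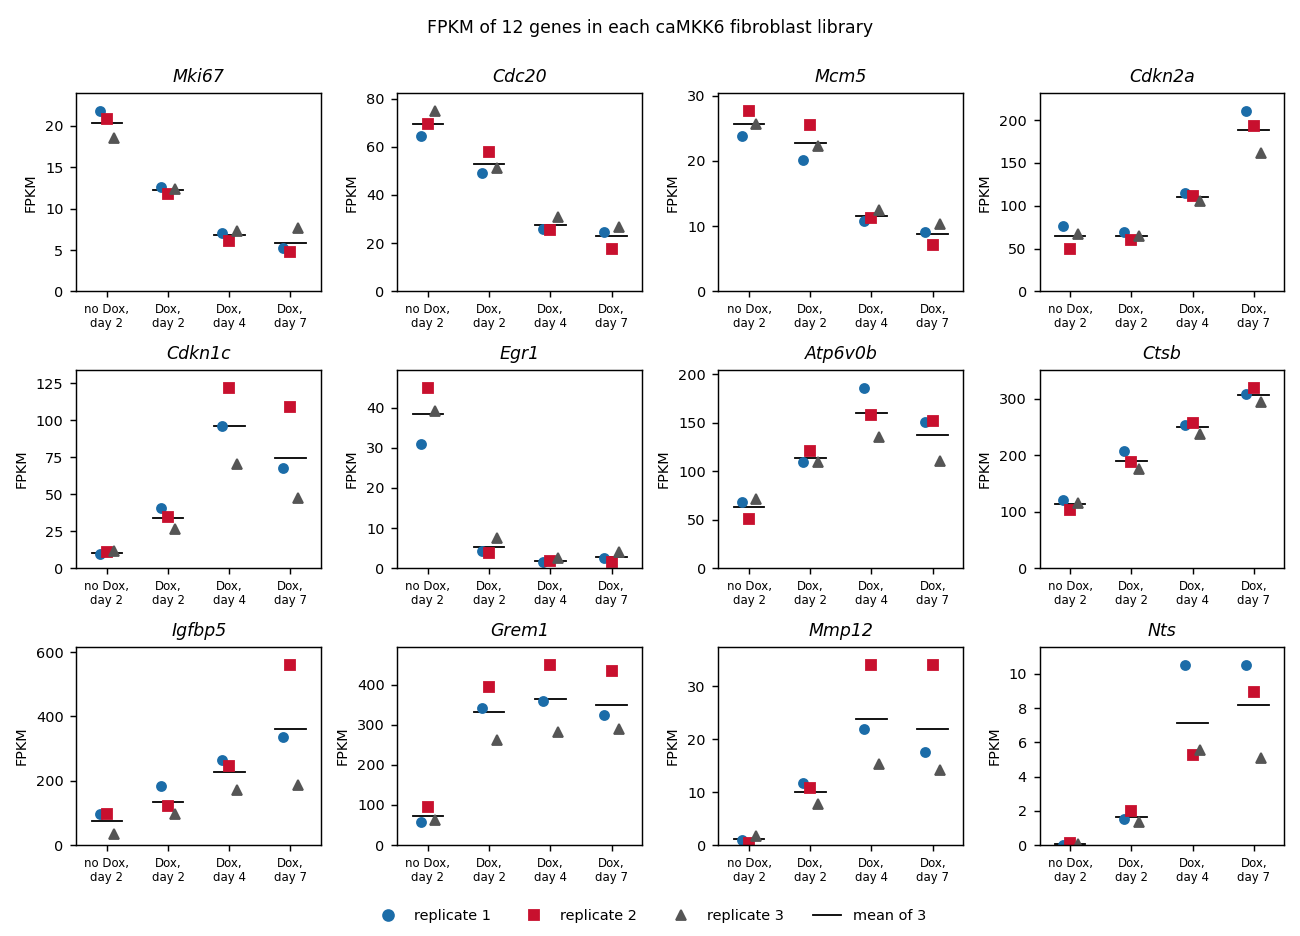
FPKM (linear axis from 0) of 12 genes in each caMKK6 library, untreated at day 2 and on doxycycline at days 2, 4 and 7. Markers show the replicate number and lines the mean of 3, and in all 12 panels the day 7 libraries do not overlap the untreated ones.

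Within the p38 pathway most of the called kinase genes fell, and the phosphatases that act on the pathway went both ways. Of 29 tested members 7 rose and 11 fell (4 and 6 against untreated replicate 1 alone), and the median change was -0.12, beside -0.038 over all genes. Map2k3, the other main activator of p38, fell from 48.7, 53.4 and 55.9 to 30.6, 21.8 and 29.1 FPKM (log2 change -0.94 ± 0.11, adjusted p = 1.45e-06, limma). Mapk14, which encodes p38 alpha itself, was read at 27.7, 27.2 and 28.2 FPKM untreated and 19.9, 18.3 and 20.02 at day 7 (-0.49 ± 0.055). Rps6ka4, the MSK2 kinase downstream of p38, showed 24.6, 30.6 and 25.7 FPKM untreated and 15.9, 13.2 and 16.1 at day 7 (-0.799 ± 0.11). All 3 kinase genes were lower in every day 7 library. In contrast Mapk13, p38 delta, rose from 2.31, 1.53 and 2.21 to 5.84, 5.51 and 4.98 FPKM (1.104 ± 0.12), and Dusp10, a phosphatase that inactivates p38 and JNK, from 9.05, 8.09 and 8.85 to 14.01, 21.96 and 11.8 FPKM (0.77 ± 0.15). Dusp1, a related phosphatase gene, fell (-0.56 ± 0.093).

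Among 20 cell cycle regulators of the CDK inhibitor, D cyclin and Rb group 4 rose and 7 fell (3 and 6 against untreated replicate 1 alone). The atypical repressors E2f7 and E2f8, which damp the E2F programme, fell from 4.42, 4.06 and 4.101 to 1.41, 1.08 and 1.497 FPKM and from 3.52, 4.17 and 4.77 to 1.33, 0.8901 and 1.78 FPKM. Rbl1, the Rb relative p107, fell as well (-0.89 ± 0.12), and so did Myc (-0.603 ± 0.079) and the INK4 inhibitor gene Cdkn2c (-0.85 ± 0.15). The CDK inhibitors were split. Cdkn1c, p57, rose from 9.36, 10.9 and 11.4 to 68.05, 109 and 47.8 FPKM (2.64 ± 0.26) and Cdkn2a (1.55 ± 0.14) rose with it.

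The genes of cell division fell together. All 40 mitosis genes fell, with a median change of -1.36, and all 40 fell in every fit that left out 1 library and against untreated replicate 1 alone. Ccna2, cyclin A2, was read at 29.1, 37.5 and 30.4 FPKM untreated and 9.87, 7.88 and 11.5 at day 7 (log2 change -1.64 ± 0.14, adjusted p = 9.48e-08, limma). Cdc20, which activates the anaphase-promoting complex, was read at 64.6, 69.6 and 74.7 FPKM untreated and 24.6, 17.4 and 26.9 at day 7 (-1.58 ± 0.14). For Top2a, the topoisomerase that untangles sister chromatids, the values were 35.6, 41.8 and 35.8 FPKM untreated and 12.1, 9.499 and 14.97 at day 7 (-1.57 ± 0.13). For these genes all 3 untreated libraries lay above all 3 day 7 libraries, and day 7 replicate 2 was the lowest. The spindle kinesins Kif11 (-1.47), Kif20a (-1.48) and Kif2c (-1.48), the kinases Plk1 (-1.51) and Bub1 (-1.46), and Foxm1 (-1.37), the transcription factor of this programme, fell by similar amounts on the log2 scale. The smallest fall was that of the checkpoint gene Bub3, at -0.38 ± 0.049. Transcripts were still present at day 7: Mki67, the proliferation antigen, stood at 5.25, 4.73 and 7.72 FPKM.

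DNA replication followed the same direction, with 36 of 36 genes lower and a median of -0.93 (30 lower against untreated replicate 1 alone). Mcm5 and Mcm3, subunits of the replicative helicase, went from 23.8, 27.6 and 25.6 to 9.14, 7.09 and 10.3 FPKM and from 26.6, 32.4 and 31.4 to 11.04, 9.11 and 12.6 FPKM. Cdc6, which loads that helicase, fell from 4.48, 4.98 and 4.34 to 1.36, 1.297 and 1.59 FPKM (-1.21 ± 0.101). In the supply of nucleotides 19 of 22 genes fell and none rose (13 lower against untreated replicate 1 alone). The largest fall there was Rrm2, the regulated subunit of ribonucleotide reductase, with 126, 148 and 139 FPKM untreated and 48.5, 41.6 and 48.3 at day 7 (log2 change -1.56 ± 0.11, adjusted p = 6.03e-09, limma). Its partner Rrm1 (-1.24 ± 0.081) and the thymidylate genes Tk1 (-1.299 ± 0.19) and Tyms (-1.11 ± 0.15) fell too. Of 26 genes of homologous recombination and Fanconi repair 24 fell, among them Brca1 (-0.83 ± 0.103) (22 of the 26 fell against untreated replicate 1 alone).

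Promoters of these genes carry short motifs known from cell cycle control. They are shown because the mitosis and replication genes moved as blocks. The cell cycle homology region, TTTGAA on either strand, is a binding element of the DREAM and MuvB complexes, and E2F factors bind TTTCCCGC or TTTGGCGC. In the 300 bases from 250 before to 50 after the RefSeq start, TTTGAA was found in 25 of 33 matched mitosis genes, 75.8%, against 14.2% of the 9087 matched genes tested. The E2F letters were found in 10 of 27 replication genes, 37.0%, against 3.48%. A match describes the letters and does not show that a site is bound. The stretches below run 5′ to 3′ on the strand of the gene, from RefSeq on GRCm38.p6, with the motif in capitals.
Cdc20: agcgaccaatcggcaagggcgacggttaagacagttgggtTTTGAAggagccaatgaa
Top2a: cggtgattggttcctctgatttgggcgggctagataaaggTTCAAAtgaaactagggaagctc
Ube2c: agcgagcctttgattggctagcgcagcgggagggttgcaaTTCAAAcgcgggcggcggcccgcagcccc
Mki67: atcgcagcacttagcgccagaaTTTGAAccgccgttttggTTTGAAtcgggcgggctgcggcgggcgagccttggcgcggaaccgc
Mcm6: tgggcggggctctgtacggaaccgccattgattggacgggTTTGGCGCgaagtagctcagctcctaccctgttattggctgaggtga
Cdc6: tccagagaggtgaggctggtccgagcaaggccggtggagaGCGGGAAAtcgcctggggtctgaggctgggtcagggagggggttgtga
They lie at chr4:118437344-118437401 on the minus strand (Cdc20), chr11:99024190-99024252 on the minus strand (Top2a), chr2:164769860-164769928 on the plus strand (Ube2c) and chr7:135716432-135716517 on the minus strand (Mki67), each with the cell cycle homology region. The E2F examples lie at chr1:128359706-128359792 on the minus strand (Mcm6) and chr11:98907973-98908060 on the plus strand (Cdc6). The genes printed were picked among those with a match.

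**Figure D4:**
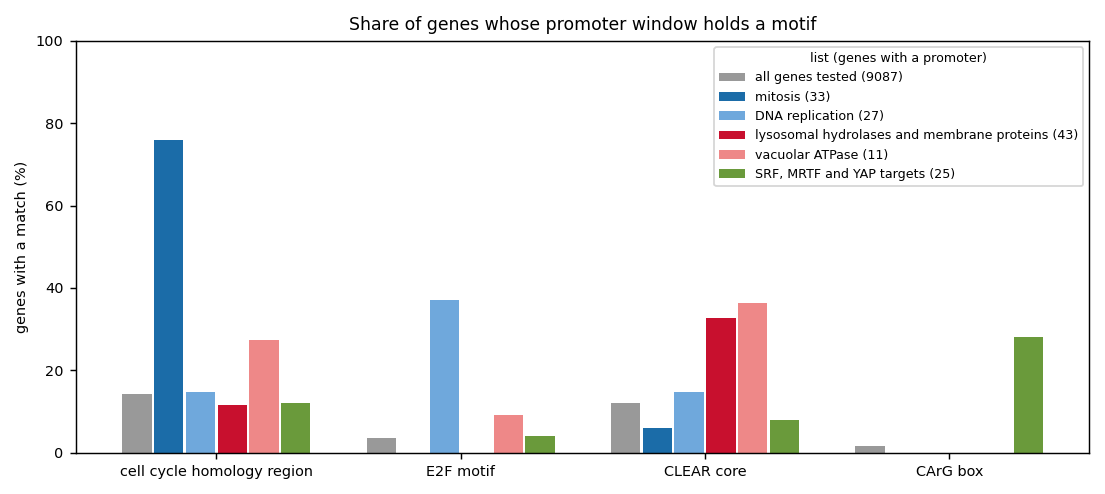
Percent of genes whose 300-base promoter window holds each of 4 motifs, for all 9087 matched genes tested and for 5 gene lists. The mitosis bar reaches 75.8% for the cell cycle homology region and the replication bar 37.0% for the E2F motif, against 14.2% and 3.48% over all genes.

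Replication-dependent histone genes went the other way. They are known to be made in S phase, with messages that end in a stem-loop in place of a poly(A) tail. Of 13 tested 11 rose and none fell (10 rose against untreated replicate 1 alone), at a median of 0.88. H3c2 was read at 6.73, 3.19 and 3.52 FPKM untreated and 31.4, 26.5 and 25.03 at day 7 (log2 change 2.43 ± 0.28, adjusted p = 1.77e-06, limma), and H2ac4 at 3.004, 2.09 and 3.17 FPKM untreated and 16.4, 16.4 and 14.9 at day 7 (2.18 ± 0.32). Histone genes have near-identical copies, so reads could be split among them and single members are uncertain.

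Of 21 genes of the nuclear lamina and of high mobility group chromatin proteins 17 fell and none rose (10 fell against untreated replicate 1 alone). Lbr, the lamin B receptor that tethers heterochromatin, was read at 13.2, 19.2 and 17.03 FPKM untreated and 7.76, 7.21 and 8.75 at day 7 (log2 change -0.96 ± 0.17, and -0.68, adjusted p = 0.0514 against untreated replicate 1 alone, limma). Tmpo, a lamina-associated protein (-0.87 ± 0.12), and Lmnb2, lamin B2 (-0.75 ± 0.12), fell. Lmna, which encodes lamins A and C, also fell, from 194, 221 and 181 to 132, 122 and 126 FPKM (-0.64 ± 0.081). Of 19 polycomb and DNA methylation genes 5 fell and 1 rose (5 and 0 against untreated replicate 1 alone). The maintenance methyltransferase Dnmt1 fell from 23.04, 26.02 and 22.5 to 9.56, 10.4 and 11.7 FPKM (-1.11 ± 0.095, adjusted p = 6.93e-08, limma), and Ezh2, the polycomb histone methyltransferase, from 10.7, 11.1 and 11.8 to 6.15, 5.44 and 5.73 FPKM (-0.85 ± 0.079).

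Targets of p53 did not move as a block: 7 rose and 9 fell of 33 (4 and 9 against untreated replicate 1 alone), at a median of 0.025. Mdm2, the ligase that degrades p53, fell from 119, 99.7 and 122 to 90.2, 80.6 and 82.1 FPKM (-0.42 ± 0.079). Pmaip1, the BH3-only protein Noxa, rose from 21.9, 5.54 and 27.02 to 68.8, 38 and 69.8 FPKM (1.84 ± 0.44, adjusted p = 0.00244, limma); without untreated replicate 2, the lowest library, the change was 1.19. In the BCL2 family 4 of 15 genes rose and 4 fell (4 and 3 against untreated replicate 1 alone). Bnip3l, a receptor for mitophagy, rose (0.71 ± 0.12), while the pro-apoptotic Bak1 (-0.399 ± 0.065) fell.

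Immediate early genes, which growth factors induce within minutes, were mostly lower. Of 29 tested 19 fell and 4 rose (13 and 3 against untreated replicate 1 alone), at a median of -0.45. Beside Egr1, Fos was read at 6.64, 8.18 and 7.33 FPKM untreated and 0.929, 0.794 and 1.75 at day 7 (log2 change -1.98 ± 0.19, adjusted p = 1.98e-07, limma) and Ier2 at 45.9, 45.6 and 44.1 FPKM untreated and 11.4, 9.54 and 12.7 at day 7 (-1.93 ± 0.11). Klf2 (-1.44 ± 0.22) and Klf10 (-1.21 ± 0.15), zinc finger factors, fell as well. The exceptions included Jund, the AP-1 member known to restrain growth, which rose from 61.8, 61.2 and 55.8 to 91.6, 118 and 83.1 FPKM (0.69 ± 0.11). For Egr1 the caMKK6 change minus the caMEK1 change was -2.85 ± 0.302 on the log2 scale (adjusted p = 3.90e-07, limma), and under caMEK1 it went from 56.4 ± 5.197 to 37.1 ± 4.24 FPKM (SD, n = 3).

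Lysosomal genes rose. Of 53 hydrolases and lysosomal membrane proteins 35 rose and none fell, at a median of 0.47 (24 rose against untreated replicate 1 alone). All 17 tested subunits of the vacuolar ATPase, the pump that acidifies lysosomes, rose, at a median of 0.66 (12 against untreated replicate 1 alone), as did 24 of 35 autophagy genes, at 0.33 (15 against untreated replicate 1 alone). The protease gene Ctsd was read at 218, 181 and 201 FPKM untreated and 423, 338 and 420 at day 7 (log2 change 0.97 ± 0.15, adjusted p = 3.07e-05, limma). Ctsl, another cathepsin, was read at 127, 116 and 124 FPKM untreated and 264, 327 and 203 at day 7 (1.09 ± 0.196), and Gla, the alpha-galactosidase, at 7.92, 8.93 and 8.96 FPKM untreated and 17.5, 18.5 and 16.2 at day 7 (0.94 ± 0.073). In these 3 genes no day 7 library overlapped the untreated ones. The pump subunit Atp6v0b went from 68.2, 50.95 and 71.9 to 151, 152 and 111 FPKM (1.103 ± 0.13) and Atp6v1f from 70.7, 59.9 and 83.6 to 152, 164 and 134 FPKM (1.07 ± 0.11). Among autophagy genes Gabarapl1, which coats autophagosomes, rose from 54.04, 48.8 and 55.4 to 124, 146 and 113 FPKM (1.25 ± 0.11). Sqstm1, the cargo receptor p62, rose from 129, 123 and 129 to 291, 269 and 249 FPKM (1.08 ± 0.13), and Rragd, a GTPase that recruits mTORC1 to lysosomes, from 1.24, 0.834 and 0.883 to 5.39, 6.58 and 3.3 FPKM (1.59 ± 0.17).

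Macrophages are rich in lysosomes, and their markers were higher at day 7. In the replicate pair with the lowest macrophage sum, replicate 2, the median lysosomal difference was 0.446, beside 0.45 and 0.493 in pairs 1 and 3. The ATPase medians were 0.676 against 0.651 and 0.501. Of the 53 lysosomal genes 47, 40 and 52 were higher at day 7 in pairs 1, 2 and 3. Without day 7 replicate 2 the fit called 40 of them higher at a median of 0.515, beside 35 at 0.473 with all libraries. Day 7 replicate 2 also held the most transgene, so the pairs differed in more than macrophage RNA. Cd68, which belongs to both lists, was read at 7.63, 3.71 and 10.8 FPKM untreated and 19.9, 7.103 and 22.4 at day 7 (adjusted p = 0.0387, limma). Its call was lost without day 7 replicate 1 or 3 or untreated replicate 1 or 2, with adjusted p up to 0.211. By the test of the difference, the day 7 change was lower under caMKK6 than under caMEK1 in 16 of the 53 lysosomal genes and higher in 4. Over all genes tested 23.3% were lower and 14.5% higher in that test. The part of macrophage RNA in these lists was not tested.

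The E-box CACGTG is the core of the CLEAR element, which TFEB and related factors bind at lysosomal genes. It was found in the same promoter window in 14 of 43 lysosomal genes, 32.6%, and in 4 of 11 ATPase genes, 36.4%, against 12.1% of all matched genes tested. Lists that mostly fell held it too, with 6 of 23 immediate early genes, 26.1%, and 4 of 20 nucleotide synthesis genes. Of the other falling lists, DNA replication held it in 14.8% and mitosis in 6.06%. The motif was thus not limited to lists that rose. The examples were picked among genes with a match and hold 2 or 3 copies, with the motif in capitals. The like stretch of Ctsd, which is not printed, holds 1.
Atp6v0b: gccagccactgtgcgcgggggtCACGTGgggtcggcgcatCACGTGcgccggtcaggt
Lamp1: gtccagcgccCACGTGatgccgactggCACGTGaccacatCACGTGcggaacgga
Gla: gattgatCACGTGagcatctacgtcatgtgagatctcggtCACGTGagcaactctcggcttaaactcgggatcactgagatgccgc
They lie at chr4:117887330-117887387 on the minus strand, chr8:13159106-13159160 on the plus strand and chrX:134601154-134601239 on the minus strand. The lysosomal membrane protein Lamp1 itself was read at 416, 378 and 360.3 FPKM untreated and 535, 576 and 492 at day 7 (log2 change 0.47 ± 0.080).

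Of 46 NRF2 and glutathione genes 18 rose and 4 fell (14 and 0 against untreated replicate 1 alone, and 1 fall without day 7 replicate 2 or untreated replicate 2). Prdx1, a peroxiredoxin, rose from 184, 213 and 250 to 481, 547 and 402 FPKM (log2 change 1.14 ± 0.13, adjusted p = 2.22e-06, limma). Hmox1, which breaks down heme, went from 116, 142 and 124 to 223, 280.4 and 207 FPKM (0.88 ± 0.17) and Slc7a11, the cystine importer, from 0.695, 1.42 and 0.867 to 2.77, 4.22 and 2.44 FPKM (1.05 ± 0.17). Iron genes went both ways, with 5 rises and 5 falls among 18 (4 and 4 against untreated replicate 1 alone). The ferritin chain Fth1 (0.69 ± 0.087) and the iron exporter Slc40a1 (1.09 ± 0.11) rose, and the importers Tfrc (-0.603 ± 0.103) and Slc11a2 (-0.54 ± 0.082) fell. The metallothioneins Mt1 and Mt2, which bind zinc and copper, rose from 37.1, 35.2 and 38.6 to 108, 133 and 93.7 FPKM and from 28.2, 30.1 and 31.1 to 129.5, 167 and 117 FPKM. They were the only rises among 10 genes of metallothioneins and zinc transport, of which 1 fell (2 and 0 against untreated replicate 1 alone).

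Among 28 matrix proteases and inhibitors 8 rose and 6 fell (7 and 4 against untreated replicate 1 alone). The called MMP genes rose and the called ADAMTS genes fell. Mmp12, macrophage elastase, was read at 1.03, 0.4595 and 1.77 FPKM untreated and 17.6, 33.99 and 14.2 at day 7 (log2 change 3.41 ± 0.29, adjusted p = 7.10e-08, limma), and Mmp10, stromelysin 2, at 0.6704, 2.96 and 2.73 FPKM untreated and 35.9, 96.3 and 15.9 at day 7 (3.76 ± 0.495). Mmp13, collagenase 3, was read at 0.831, 0.45 and 0.944 FPKM untreated and 12.4, 15.6 and 8.51 at day 7 (2.896 ± 0.37). Replicate 2 was the highest day 7 library for all 3. Adamts12 (-1.28 ± 0.22), Adamts9 (-1.03 ± 0.102), Adamts5 (-0.84 ± 0.18) and Adamts1 (-0.83 ± 0.13), which cut proteoglycans and related matrix proteins, all fell. The inhibitor Timp1 fell from 254, 359 and 369 to 206, 159 and 227 FPKM (-0.72 ± 0.17), but against untreated replicate 1 alone its change was -0.38, adjusted p = 0.154.

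Cytokines and growth factors changed one by one. Of 25 cytokines and chemokines 4 rose and 5 fell (5 and 2 against untreated replicate 1 alone, and 3 falls without untreated replicate 2). Ccl11, eotaxin, was read at 0, 1.24 and 0.252 FPKM untreated and 11.4, 16.9 and 10.9 at day 7 (log2 change 3.295 ± 0.38, adjusted p = 1.76e-06, limma), and Ccl8 at 0, 0.277 and 0.667 FPKM untreated and 4.96, 12.9 and 6.54 at day 7 (2.73 ± 0.48). The macrophage growth factor Csf1 went the other way, with 213, 192 and 207 FPKM untreated and 79.5, 43.7 and 109 at day 7 (-1.48 ± 0.32, adjusted p = 0.00118). Of 30 growth factor ligands 8 rose and 5 fell (5 and 3 against untreated replicate 1 alone, and 3 falls without day 7 replicate 1 or untreated replicate 2). The EGF receptor ligands Ereg (-1.14 ± 0.15) and Hbegf (-0.74 ± 0.16) fell, and Pgf, placental growth factor, rose from 2.23, 1.05 and 1.83 to 5.34, 8.297 and 2.84 FPKM (1.198 ± 0.27), with 0.91, adjusted p = 0.0941 against untreated replicate 1 alone. In the IGF group of 16 genes 2 rose and 2 fell (2 and 1 against untreated replicate 1 alone, and 4 falls without day 7 replicate 3, 1 without day 7 replicate 1). The rises were Igfbp5 (2.24 ± 0.38) and the protease gene Pappa, which frees IGF from its binding proteins and went from 5.78, 6.37 and 4.995 to 22.1, 42.2 and 21.9 FPKM (2.09 ± 0.19). The falls were Igf2bp1 (-0.305 ± 0.080) and Igf2bp3 (-0.199 ± 0.066), which bind RNA. The call of Igf2bp3 was lost against untreated replicate 1 alone (-0.077, adjusted p = 0.514), without day 7 replicate 1 or untreated replicate 2, and under both other scalings. Interferon genes gave 4 rises and 7 falls among 25, and 1 and 1 against untreated replicate 1 alone. There were 1 rise without day 7 replicate 1 or untreated replicate 2, 0 falls without day 7 replicate 2, and 4 falls without untreated replicate 1 or 3. In complement 4 of 15 rose and none fell, with 2 rises against untreated replicate 1 alone and without day 7 replicate 1 or untreated replicate 2. Without day 7 replicate 2, 8 rose. That library held the fewest macrophage markers and also the most transgene of the 3 at day 7, and the cause was not tested.

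TGF-beta and BMP genes gave 8 rises and 11 falls among 36 (5 and 7 against untreated replicate 1 alone). The BMP antagonist Grem1 was read at 58.6, 94.2 and 62.3 FPKM untreated and 324, 434 and 289 at day 7 (log2 change 2.28 ± 0.196, adjusted p = 7.03e-08, limma). The ligands Inhbb (1.399 ± 0.25) and Bmp2 (1.52 ± 0.39) rose as well. The inhibitory Smad genes Smad6 and Smad7, which BMP and TGF-beta signals induce, fell from 12.8, 13.8 and 12.98 to 5.69, 2.16 and 6.72 FPKM and from 34.8, 30.9 and 34 to 18.7, 16.8 and 17.3 FPKM. In the Wnt list 4 rose and 6 fell of 33 (4 and 4 against untreated replicate 1 alone, and 10 falls without day 7 replicate 3), and Dkk2, a secreted Wnt modulator, rose from 28.8, 17.8 and 29.04 to 89.8, 106 and 70.6 FPKM (1.79 ± 0.19). None of 11 Notch genes rose and 6 fell (4 against untreated replicate 1 alone), among them the receptor gene Notch1 (-0.92 ± 0.17). Hpgd, which inactivates prostaglandins, rose from 0.633, 0.463 and 0.527 to 6.99, 7.81 and 4.89 FPKM (2.28 ± 0.15, adjusted p = 6.03e-09, limma), and the cyclooxygenase gene Ptgs1 rose too (0.704 ± 0.18).

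Imprinted growth genes, expressed from one parental allele, rose in 9 of 18 and fell in 2 (8 and 0 against untreated replicate 1 alone). There were 4 falls without day 7 replicate 3 or after quantile normalization, and 5 with the replicate number as a block. Nnat, a membrane proteolipid, was read at 7.91, 4.76 and 8.76 FPKM untreated and 28.5, 36.3 and 42.1 at day 7 (log2 change 2.19 ± 0.17, adjusted p = 1.77e-08, limma) and Peg3, a zinc finger protein, at 19.9, 12.9 and 12.4 FPKM untreated and 35.3, 66.2 and 33.2 at day 7 (1.47 ± 0.22). Dlk1, which restrains differentiation of fat cell precursors, fell from 7.83, 11.6 and 19.1 to 2.35, 0.514 and 5.34 FPKM (-2.04 ± 0.44), and against untreated replicate 1 alone the change was -1.47, adjusted p = 0.0847.

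Matrix genes were mixed. Of 38 genes of fibrillar collagen and its processing 7 rose and 13 fell. Against untreated replicate 1 alone, 3 rose and 6 fell, and the fit without day 7 replicate 2 also gave 6 falls. Serpinh1, the collagen chaperone, was read at 970.3, 1003 and 1048 FPKM untreated and 666, 638 and 774 at day 7 (log2 change -0.54 ± 0.093), and the crosslinking oxidase Lox at 634, 583 and 524 FPKM untreated and 374, 363 and 399 at day 7 (-0.61 ± 0.12). Both were lower in all 3 day 7 libraries. Fibronectin, Fn1, was read at 474, 432 and 386 FPKM untreated and 687, 1169 and 781 at day 7 (0.995 ± 0.22, adjusted p = 0.00112, limma), and against untreated replicate 1 alone its change was 0.85, adjusted p = 0.0677. Tnc, tenascin C, rose from 354, 326 and 308 to 433, 731 and 453 FPKM (0.67 ± 0.17), with 0.43 without day 7 replicate 2 and 0.56, adjusted p = 0.112 against untreated replicate 1 alone. In the basement membrane and elastic fibre list 13 of 32 fell and 1 rose (10 and 1 against untreated replicate 1 alone). Lamc1 (-0.91 ± 0.17), a laminin chain, and Fbln5 (-0.85 ± 0.13), which organises elastic fibres, fell, and Emilin1 rose (0.78 ± 0.103).

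The day 7 change differed between the kinases in 4287 genes. In 1648, 14.5%, it was higher under caMKK6, and in 2639, 23.3%, it was lower. The 2 contrasts share no library. Against untreated replicate 1 alone 3482 genes differed. Contractile and cytoskeletal targets of SRF, MRTF and YAP showed a large share of such differences: 25 of 31 were higher under caMKK6 and none lower (22 and 0 against untreated replicate 1 alone). Within the caMKK6 cells alone only 2 of the 31 rose, Acta1 and Cnn1, and 8 fell. Acta1, skeletal muscle actin, was read at 78.2, 35.8 and 39.9 FPKM untreated and 249, 156 and 157 at day 7 (log2 change 1.899 ± 0.401, and 1.21, adjusted p = 0.0709 against untreated replicate 1 alone), while under caMEK1 it went from 60.2 ± 10.2 to 13.4 ± 8.13 FPKM (SD, n = 3). The difference of the changes was 4.11 ± 0.57 on the log2 scale (adjusted p = 1.10e-05, limma). For Tagln, the smooth muscle protein transgelin, it was 2.52 ± 0.24, from 1837 to 2301 FPKM under caMKK6 and from 2150 ± 168 to 481 ± 119.6 FPKM under caMEK1. Myl9, a myosin light chain, gave 3.101 ± 0.36 and Ccn2, a YAP target, 3.28 ± 0.41. The untreated means of the 2 genotypes were measured separately, so each difference rests on 12 libraries.

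The CArG box, the SRF binding element, was found in the promoter window of 7 of 25 matched genes of this list, 28.0%, against 1.63% of all matched genes tested. The boxes are in capitals in the promoters of Srf itself, which fell (log2 change -0.42 ± 0.074), and of Acta1.
Srf: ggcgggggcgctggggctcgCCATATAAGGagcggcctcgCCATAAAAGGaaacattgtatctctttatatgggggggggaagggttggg
Acta1: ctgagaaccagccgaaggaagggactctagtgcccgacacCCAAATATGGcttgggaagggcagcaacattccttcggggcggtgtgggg
They lie at chr17:46556175-46556264 and chr8:123894799-123894888, both on the minus strand.

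**Figure D5:**
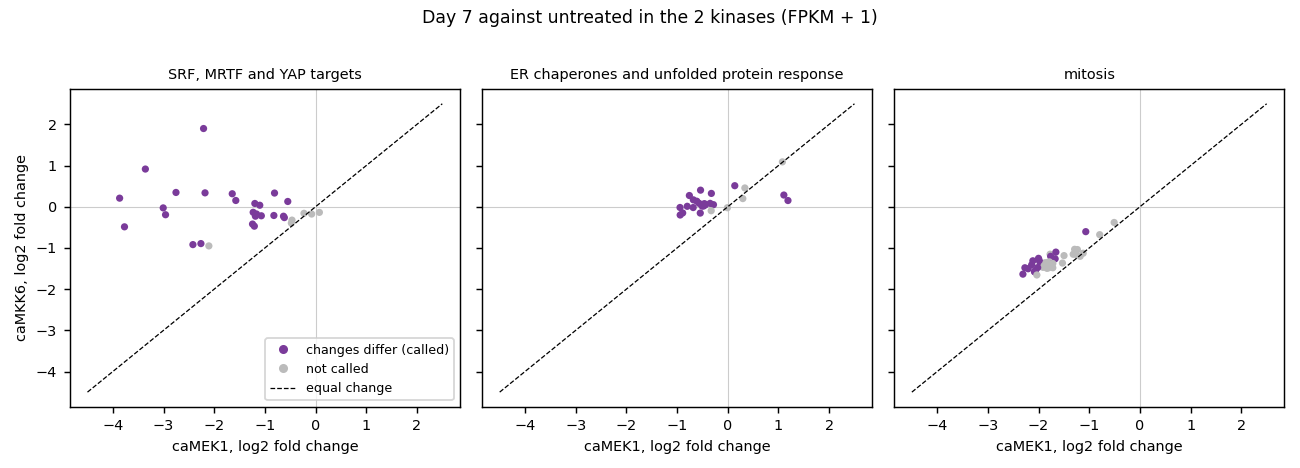
Log2 change at day 7 under caMEK1 (horizontal) against caMKK6 (vertical) for genes of the SRF list, ER chaperones and mitosis, with genes whose change differed between the kinases in purple. The change was called higher under caMKK6 for 25 of 31 genes of the SRF list, 20 of 27 of the ER list and 17 of 40 of the mitosis list.

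Mitosis genes fell less under caMKK6 than under caMEK1 in 17 of 40, and in none more (5 and 0 against untreated replicate 1 alone). Cdc20 differed by 0.5 ± 0.19 (adjusted p = 0.0491, limma) and Ccna2 by 0.67 ± 0.205. Chaperones of the endoplasmic reticulum differed in 22 of 27, 20 higher and 2 lower (18 and 2 against untreated replicate 1 alone). Hspa5, the chaperone BiP, was read at 308, 317 and 279 FPKM untreated and 322, 307 and 283 at day 7, with no called change under caMKK6 (0.011 ± 0.084), and differed from caMEK1 by 0.81 ± 0.12. Calr (0.85 ± 0.103) and Pdia4 (0.75 ± 0.094) differed in the same direction. Within the caMKK6 cells 6 of the 27 rose and 1 fell (4 and 0 against untreated replicate 1 alone), and after scaling to a common median 10 rose and 0 fell. Dnajb9, a co-chaperone of BiP, rose from 13.6, 12.3 and 12.1 to 29.2, 35.2 and 21.4 FPKM (1.09 ± 0.13).

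Of 40 ribosome biogenesis genes 24 fell and none rose (14 against untreated replicate 1 alone), while of 57 cytosolic ribosomal proteins 2 fell and none rose (0 falls against untreated replicate 1 alone or without day 7 replicate 2). Nop58, a nucleolar protein, was read at 23.1, 23.2 and 24.7 FPKM untreated and 16.3, 16.1 and 14.4 at day 7 (log2 change -0.57 ± 0.060, adjusted p = 6.06e-07, limma). In the integrated stress response 5 of 32 genes rose and 8 fell (5 and 4 against untreated replicate 1 alone, and 8 rises without untreated replicate 1). The amino acid importers Slc7a5 (-0.83 ± 0.11) and Slc1a5 (-1.27 ± 0.16) and the serine synthesis genes Phgdh (-0.86 ± 0.16) and Psat1 (-0.87 ± 0.14) fell, and the factor Atf5 rose (0.68 ± 0.078). Of 26 heat shock genes 7 rose and 3 fell (3 and 0 against untreated replicate 1 alone, and 1 fall without day 7 replicate 2), and Hspb8, a small heat shock protein, rose from 31.8, 38.8 and 36.8 to 60.9, 67.7 and 55.7 FPKM (0.76 ± 0.087). Oxidative phosphorylation gave 12 rises and 4 falls among 56 (7 and 0 against untreated replicate 1 alone); 6 rose without day 7 replicate 1 or untreated replicate 2, and 1 fell without day 7 replicate 2 or untreated replicate 3. In lipid handling 8 of 34 genes rose and 10 fell (5 and 2 against untreated replicate 1 alone, and 6 falls without day 7 replicate 2, 5 without untreated replicate 2). Plin2, which coats lipid droplets, rose from 64.8, 47.7 and 49.7 to 161, 198 and 113 FPKM (1.496 ± 0.199, adjusted p = 8.92e-06, limma) and Fabp3 from 5.18, 3.18 and 4.89 to 34.2, 34.1 and 18.6 FPKM (2.44 ± 0.27). The lipase gene Lpl (-1.03 ± 0.17) and the fatty acid elongase gene Elovl6 (-0.59 ± 0.13, with -0.499, adjusted p = 0.0663 against untreated replicate 1 alone) fell. Of 25 glycolysis genes 2 rose and 3 fell (2 and 2 against untreated replicate 1 alone). Without untreated replicate 2, 5 rose, and without day 7 replicate 1, 4, the number also called with the replicate block. Eno2, the neuronal enolase, was the largest glycolytic change, from 1.89, 1.34 and 2.101 to 7.77, 11.6 and 6.36 FPKM (1.76 ± 0.15), while Ldha fell (-0.53 ± 0.095).

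Genes known from placenta, mast cells and epithelium were among the largest rises, and many lie on the same chromosome as others of their family. The stretches given run from the first to the last tested member, and other genes between them were not counted. The families described here were picked after their values were seen, and members near 0 untreated passed the filter on low values through libraries where they were high. Counts of their tested members therefore describe those genes and support nothing. Of 17 placental lactogens and proliferins listed in the deposited data 7 stayed under 1 FPKM in all 6 libraries. With no filter 12 of the 17 were called higher, beside 2083 of all 21859 genes, and that count too only describes them. Their copies are near-identical and single members are uncertain. Prl3d1, placental lactogen I, was read at 0.406, 0.9704 and 2.03 FPKM untreated and 14.3, 44.1 and 5.59 at day 7 (log2 change 3.03 ± 0.495), and Prl7b1 at 0, 0 and 0.0737 FPKM untreated and 6.09, 23.8 and 3.23 at day 7 (3.15 ± 0.45). Replicate 2 was the highest day 7 library for both, as it was for the transgene. On chromosome 13, between positions 12790816 and 27808729 of mm10, 13 of 17 tested prolactin family genes rose and 1 fell. On chromosome 9, between 7272514 and 7581885, 6 of 7 tested metalloproteases rose. On chromosome 14, between 55950980 and 56132608, 5 of 7 tested genes for chymases, mast cell proteases and granzymes rose, among them Cma2 with 0.0808, 0.193 and 0 FPKM untreated and 4.68, 15.2 and 8.96 at day 7 (3.16 ± 0.39). Of 17 mast cell proteases and granzymes listed there 13 stayed under 1 FPKM in all 6 libraries. Mast cell markers of other kinds were near 0, since 12 of 13 lymphocyte and mast cell markers stayed under 1 FPKM in all 6 libraries. On chromosome 3, between 92316620 and 92485895, 5 of 6 tested small proline-rich genes rose, among them Sprr1a, of the epithelial envelope, with 1.87, 2.81 and 2.03 FPKM untreated and 16.96, 37.01 and 12.7 at day 7 (2.72 ± 0.34). In the chemokine stretch of chromosome 11, between 82035571 and 82116799, 3 of 5 tested genes rose. The serpin Serpinb9g was listed at 0 in all 3 untreated libraries and at 8.41, 8.84 and 2.04 FPKM at day 7.

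Other rises outside these families crossed tissue types. Nts, the peptide neurotensin, was read at 0, 0.113 and 0.0546 FPKM untreated and 10.5, 8.93 and 5.07 at day 7 (log2 change 3.07 ± 0.195, adjusted p = 4.64e-09, limma) and differed from caMEK1 by 3.07 ± 0.28. Hsd3b6, a steroid dehydrogenase, stood at 0.0493, 0.275 and 0.114 FPKM untreated and 12.6, 28.96 and 4.54 at day 7 (3.52 ± 0.71), and Itm2a, a membrane protein, at 16.04, 15.01 and 17 FPKM untreated and 109, 286 and 46.8 at day 7 (2.76 ± 0.42). Pla2g7, which breaks down platelet-activating factor, was read at 12.8, 9.74 and 10.7 FPKM untreated and 105, 85.8 and 66.4 at day 7 (2.83 ± 0.202). The neuronal proteins Gap43 (1.75 ± 0.31) and Uchl1 (1.86 ± 0.18) and the skin gene Prr9 (3.12 ± 0.28) rose too, and so did the keratin gene Krt18, from 6.12, 7.93 and 13.2 to 31.8, 30.6 and 24.8 FPKM (1.63 ± 0.34). The other large falls included the glutamate transporter Slc1a6 (-2.17 ± 0.37), the lectin Lgals9 (-1.97 ± 0.33), the proteoglycan Cspg4 (-1.87 ± 0.296), the pentraxin Ptx3 (-1.87 ± 0.35), the tendon gene Tnmd (-1.66 ± 0.23), and Srpx (-1.86 ± 0.296) and Ckap2l (-1.803 ± 0.16). Ltbp2, which binds elastic microfibrils, was read at 27.4, 35.5 and 37.8 FPKM untreated and 7.68, 1.63 and 18.1 at day 7 (-2.17 ± 0.58), and without day 7 replicate 2 its change was -1.41, adjusted p = 0.0447. For Ltbp2, Col6a3 (-1.79 ± 0.44) and Foxs1 (-1.696 ± 0.38) the calls were lost against untreated replicate 1 alone. That was also so for the chemokine Cxcl5 (-1.73 ± 0.63), whose untreated replicate 2 stood apart at 36.0 FPKM. Its call was also lost without day 7 replicate 2 or 3 or untreated replicate 2, with log2 changes up to -1.01 and adjusted p up to 0.224 (limma).

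On the FPKM scale the largest rise was Tmsb4x, which binds actin monomers, with 1190, 983 and 1686 FPKM untreated and 2807, 2649 and 2337 at day 7 (log2 change 1.05 ± 0.15). The mitochondrial messages mt-Cytb (0.701 ± 0.12), mt-Nd1 (0.72 ± 0.11) and mt-Nd2 (0.95 ± 0.14) also rose, and so did mt-Co1 (0.47 ± 0.11) and mt-Nd5 (0.71 ± 0.14), whose calls were lost against untreated replicate 1 alone. Ftl1, the ferritin light chain, was read at 1148, 1362 and 1348 FPKM untreated and 1775, 2025 and 1761 at day 7 (0.53 ± 0.101), but after quantile normalization its change was -0.005. Csrp1, an SRF target, rose by 0.72 ± 0.15 and against untreated replicate 1 alone by 0.63, adjusted p = 0.07204. Crabp1, a retinoic acid binding protein, was read at 722, 755 and 353 FPKM untreated and 1659, 2376 and 859 at day 7 (1.38 ± 0.47, adjusted p = 0.0257, limma), and its call was lost without day 7 replicate 1 or 2 or untreated replicate 3, with adjusted p up to 0.129. The largest falls on that scale beyond those above were Vim (-0.36 ± 0.066), Ccn1 (-0.89 ± 0.088), Cavin2 (-1.18 ± 0.17), Emp1 (-0.75 ± 0.090), S100a4 (-0.88 ± 0.24) and Rpl4 (-0.21 ± 0.061). Without day 7 replicate 2 the calls of S100a4 (-0.57, adjusted p = 0.0583) and Rpl4 (-0.18, adjusted p = 0.0526) were lost.

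The label fibroblast was checked against its markers and against those of other cells. All 12 fibroblast markers were tested, with Col1a1 at 756, 848 and 690.1 FPKM untreated and 655, 533 and 893 at day 7, Vim at 1106, 1208 and 1057 FPKM untreated and 899.9, 864 and 852 at day 7 and Thy1 at 256, 272 and 220.2 FPKM untreated and 308, 379.7 and 308 at day 7. These are high in every library of both groups. Among 12 fibroblast markers 3 rose and 4 fell, against 1 each with untreated replicate 1 alone and 2 falls without day 7 replicate 2. Erythroid markers were all under 1 FPKM. The 12 cartilage and bone markers summed to 80.2, 241 and 252 FPKM untreated and 217, 178 and 382 at day 7. Of 5 tested 1 fell, and 7 stayed under 1 FPKM in all 6 libraries. The 17 skeletal and cardiac muscle markers summed to 37.51, 15.3 and 33.85 FPKM untreated and 56.82, 22.19 and 77.7 at day 7. Of 2 tested 1 fell. Neural and glial sums reached 59.91 FPKM and adipocyte sums 20.85 FPKM. Which cells held this RNA was not tested. Of 11 epithelial markers 6 could be tested, of which Krt8 and Krt18 rose, while Epcam and Cdh1, which define epithelium, stayed under 1 FPKM in all 6 libraries. Of 10 endothelial markers 4 could be tested and 1, the VEGF receptor Flt1, fell from 8.54, 6.31 and 8.11 to 2.87, 1.29 and 3.33 FPKM (-1.35 ± 0.22), while Pecam1 was read at 0.0285, 0.0114 and 0.0328 FPKM untreated and 0.0339, 0.0445 and 0.0383 at day 7.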

How the data were processed

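Total RNA of whole cultures was sequenced, with 100 ng of RNA per library and an RNA integrity above 8, per the labels' protocols. Values are FPKM per gene in 1 table of 70 libraries, deposited by the authors. The submitters' processing notes name cutadapt 1.12, STAR and mm10, while the counter and annotation are not given in the sources used here. How the FPKM were scaled affects shares of rises and falls, given with 2 other scalings.

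The 24 fibroblast libraries were fitted together on log2(FPKM + 1) with limma 3.58.1 (R 4.3.3, group means, trended variance, 16 residual degrees of freedom, two-sided, Benjamini-Hochberg), over 11347 genes at 1 FPKM or more in 3 or more libraries. Sharing one estimate of spread gives the small groups more precision. The difference between kinases was a contrast in the same fit. Python 3.11.15 with pandas 2.3.3 made the summaries. Low values are whole multiples of 1 read, and 100% of values under 1000 reads came out whole within 0.02 of a read. limma's voom on these reads called 4457 genes. Samples were grouped by their titles. The deposited column names mark the replicates ex1, ex2 and ex3, and whether these are separate cultures is not stated. The p-values thus measure the spread between libraries of a group, shared over the 24 fibroblast libraries. Same-numbered libraries deviated together (r = 0.277, 0.422 and 0.308 between day 7 and untreated), so the numbers were taken to pair them, although day 7 replicate 1 was about as close to untreated replicate 3 (r = 0.27). The fit has no term for the pairing, and the block is an alternative.

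Named genes are the transgenes, the 20 largest log2 rises and 20 falls among called genes whose groups do not overlap and whose higher mean is at least 5 FPKM, the 10 largest rises and 10 falls in FPKM, and from each list up to 8 called members with the largest change plus members that define it, of which only some are printed. A few others were chosen after their values were seen, and a gene the rule named is not reported here. The gene lists, and the comparison itself, were chosen with earlier results of these data known. Sequences are RefSeq's, on GRCm38.p6. Coordinates of gene families are from the GENCODE annotation of mm10.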

Additional observations from a re-analysis of the deposited data

Results flagged for a closer look

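The day 7 change differed between caMKK6 and caMEK1 fibroblasts in 4287 of 11347 genes, by the test of that difference in limma's fit. All differences below are the caMKK6 change minus the caMEK1 change on the log2 scale, and they cover the genes that rules of size named and those whose difference the text gives.

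Among genes that rose at day 7 under caMKK6, the change lay above that under caMEK1 for Itm2a by 3.51, Stmn4 by 3.32, Prr9 by 3.26, Nts by 3.07, Csrp1 by 2.67, Cma2 by 2.25, Prl7b1 by 1.95, Ccl11 by 1.85 and mt-Nd1 by 0.61. Not all of these rose under caMEK1. Itm2a was read at 16.02 FPKM untreated and 147 at day 7 under caMKK6, and went from 24.1 ± 2.903 to 14.2 ± 4.57 FPKM under caMEK1 (SD, n = 3). Other rises were smaller under caMKK6, namely Prl3d1 (-2.57), Prl3d2 (-2.52), Mmp10 (-1.93) and Sprr1a (-1.59). Members of the prolactin family thus stood on both sides. Prl3d1 went from 0.264 ± 0.162 to 61.8 ± 18.6 FPKM under caMEK1.

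Among the falls the caMKK6 change lay below that under caMEK1 for Dlk1 (-2.91), Egr1 (-2.85), Nid2 (-1.52), Timp1 (-1.21), Ier2 (-0.73), Emp1 (-0.5) and Vim (-0.34). It lay above for Lox by 2.91, Tnmd by 1.92, Ptx3 by 1.71, Ccn1 by 1.37, Serpinh1 by 1.11, Ccna2 by 0.67, Top2a by 0.51 and Cdc20 by 0.5. The crosslinking enzyme gene Lox went from 625 ± 42.7 to 54.5 ± 12.2 FPKM under caMEK1, against 580 to 379 FPKM under caMKK6. Genes of the SRF list differed by 4.11 for Acta1, 3.28 for Ccn2, 3.1 for Myl9 and 2.52 for Tagln. The ER chaperones differed by 0.81 for Hspa5, 0.85 for Calr and 0.75 for Pdia4.

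The MEK1 transgene, which the caMKK6 genotype does not name, was read at 10.96 FPKM in untreated caMKK6 replicate 2 and at 16.01 FPKM in replicate 3, and at 0 in replicate 1. It was also read in day 2 replicates 2 and 3 and day 4 replicate 2 on doxycycline. Its part in the results was not tested beyond the fits without the libraries that held it.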

How the results depend on the processing

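With only the 6 libraries compared, 2717 genes were called, 1143 higher and 1574 lower. Without the caMKK6 libraries that held the MEK1 transgene, 2674 were called, 1048 higher and 1626 lower, with a single untreated library. Leaving out 1 of the 6 libraries gave 3825 to 4611 calls, 1597 to 1864 higher and 2119 to 2747 lower. For the difference between kinases, leaving out 1 of 12 libraries gave 3770 to 4446. The only change of sign among the 172 called genes named was Ftl1 under quantile normalization, at -0.005 (adjusted p = 0.98, limma); the cause was not tested. Of these 172 genes 21 lost their call without the libraries holding the MEK1 transgene, 9 with only the 6 libraries and 5 without day 7 replicate 2. The replicate block, with the replicate number as a paired term, called 4977 genes, 2076 higher and 2901 lower, and 4604 for the difference between kinases; the block within genotype called 5839 and 5464. No named call was lost with the block. The pseudocount of 0.1, no filter, a filter at 5 FPKM and voom gave 4672, 4660, 3548 and 4457 calls. FPKM carry no absolute RNA amount, so a change of total RNA per cell would not show, and depth limits genes near 1 FPKM.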
